A study of Mus musculus with 16 samples.

Results

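The genes described here are 10 genes of iron storage and transport: the ferritin subunits Fth1 and Ftl1, the uptake genes Tfrc, Steap3, Slc11a2 and Slc11a1, the export genes Slc40a1 and Cp, and the iron sensors Aco1 and Ireb2. They were chosen by name from the 24421 rows of the count table, and all 10 passed the filter on low counts (more than 10 counts in at least 4 libraries), which left 14565 genes. RNA was sequenced from CD11b+ cells held back on magnetic beads from dissociated mouse brain, which the labels call cortical tissue and the methods whole cerebra. CON mice (n = 4) were C57BL/6J females on standard chow, MAL mice (n = 5) ate an isocaloric diet low in protein and fat from weaning for 1 month, and MAL-BG mice (n = 7) ate the MAL diet and also received a mix of E. coli and Bacteroidales species by gavage. Mice without bacteria were gavaged with PBS, so the MAL-BG versus MAL comparison holds the diet fixed, and MAL-BG versus CON changes diet and bacteria together. CD11b, encoded by Itgam, marks microglia and also other myeloid cells, so the fraction is not a single cell type, and Itgam was read in all 16 libraries (884 to 1460.2 CPM).

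Iron enters most cells bound to transferrin, which the transferrin receptor carries into endosomes. There a ferrireductase reduces the iron and a divalent metal transporter moves it to the cytosol. Iron that is not used is kept in the shell of ferritin, built of heavy and light subunits, and the only known exporter, ferroportin, passes iron out of the cell together with a ferroxidase such as ceruloplasmin or hephaestin. Phagocytes of the brain and of other tissues take up iron from debris, and both the storing of iron and its withholding from bacteria are known parts of myeloid biology. Much of this control acts on existing mRNA: when iron is low, the iron regulatory proteins bind a hairpin, the iron-responsive element, which blocks translation when it lies in the 5′ UTR and protects the mRNA from decay when it lies in the 3′ UTR. Protein and iron were not measured in these libraries.

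The hairpins are shown because they mark which of the 10 mRNAs hold the element in the strict form searched for here. A search of reference transcripts (GENCODE M21, GRCm38) for a C, 5 bases, the loop CAGTGN and 5 bases pairing with the first 5 (G with T allowed, sense strand of UTRs) found 7 hairpins in 4 of the 10 genes. Each line gives 27 bases of the mRNA strand from 5′ to 3′, written as DNA, with the 6-base loop in capitals.
Fth1, 5′ UTR, chr19:9982733-9982759, plus strand: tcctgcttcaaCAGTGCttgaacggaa
Ftl1, 5′ UTR, chr7:45459780-45459806, minus strand: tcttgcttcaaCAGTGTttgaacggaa
Slc40a1, 5′ UTR, chr1:45925466-45925492, minus strand: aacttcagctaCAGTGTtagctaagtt
Tfrc, 3′ UTR, chr16:32631220-32631246, plus strand: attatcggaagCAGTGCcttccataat
Tfrc, 3′ UTR, chr16:32631599-32631625, plus strand: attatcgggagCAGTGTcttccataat
Tfrc, 3′ UTR, chr16:32631664-32631690, plus strand: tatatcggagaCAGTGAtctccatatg
Tfrc, 3′ UTR, chr16:32631711-32631737, plus strand: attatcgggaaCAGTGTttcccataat
The mRNAs of Fth1, Ftl1 and Slc40a1 held the hairpin ahead of the coding sequence, and the Tfrc mRNA held 4 behind it. Among 21875 genes with a protein-coding reference transcript, 22 (0.101%) held such a hairpin in the 5′ UTR and 108 (0.494%) in the 3′ UTR. In the other members no stretch matched these letters, which says nothing of other forms of the element.

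Library totals ranged from 10312703 to 13461574 counts in CON, from 10864121 to 12819982 in MAL, and from 14191791 to 18705202 in MAL-BG. Levels are given as CPM, a gene's counts in proportion to the TMM-scaled library total. Markers of cell types differed between the groups. Summed over 10 microglia markers, CPM ranged from 16786 to 27486 in CON, from 17460 to 29763 in MAL, and from 36825 to 50286 in MAL-BG, and 6 of 10 were called higher in both MAL-BG comparisons. Summed over 10 choroid plexus markers, the range was 13919 to 53951 in CON, 6460 to 42460 in MAL and 1770 to 16522 in MAL-BG, with 10 of 10 called lower relative to CON and 9 of 10 relative to MAL. Neuron markers were called lower for 7 of 8 in both comparisons, astrocyte markers for 5 of 8 relative to CON and 6 of 8 relative to MAL, and ependyma markers for 4 and 3 of 5. Oligodendrocyte markers were called higher for 3 and 4 of 8. Of 9 endothelial and mural cell markers, 2 were called higher and 1 lower relative to CON, and 3 higher and 2 lower relative to MAL. Relative to CON, Cldn5 had a log2 fold change of 1.58 and Rgs5 of -1.42, so the sum over this list joins genes that moved in opposite directions. Single libraries stood apart in each group. CON library 1 had the lowest choroid plexus (13919 CPM) and endothelial and mural (562 CPM) sums of CON. MAL library 4 had the lowest of MAL (6460 and 577 CPM). MAL-BG library 3 had the highest sum over endothelial and mural cell markers (3506 CPM, against 562 to 2393 in the others). MAL-BG library 5 had the highest over neutrophil markers (11462 CPM, against 471 to 2791). In bulk RNA, fewer cells of a type and less RNA per cell cannot be told apart.

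Of the 10 iron genes, ferroportin (Slc40a1) was called in the comparisons with bacteria, and it was higher in MAL-BG against both other groups. Called means an adjusted p under 0.05 in the quasi-likelihood test of edgeR and an absolute log2 fold change above 0.58. Thus 1 of 10 was called higher in MAL-BG versus CON, where 11.4% of all genes tested were, and 1 of 10 in MAL-BG versus MAL, where 10.2% were. None was called lower (0 of 10), against 21.7% of all genes in MAL-BG versus CON and 20.2% in MAL-BG versus MAL. The share called higher was therefore near that of all genes. The median log2 fold change of the 10 genes was 0.14 relative to CON and 0.11 relative to MAL, beside -0.04 and -0.03 for all genes. Without the fold threshold, Fth1 passed as lower in both comparisons and Slc11a2 as higher relative to MAL. The MAL-BG libraries are shared by the 2 comparisons, so the second is not independent of the first.

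**Figure D1:**
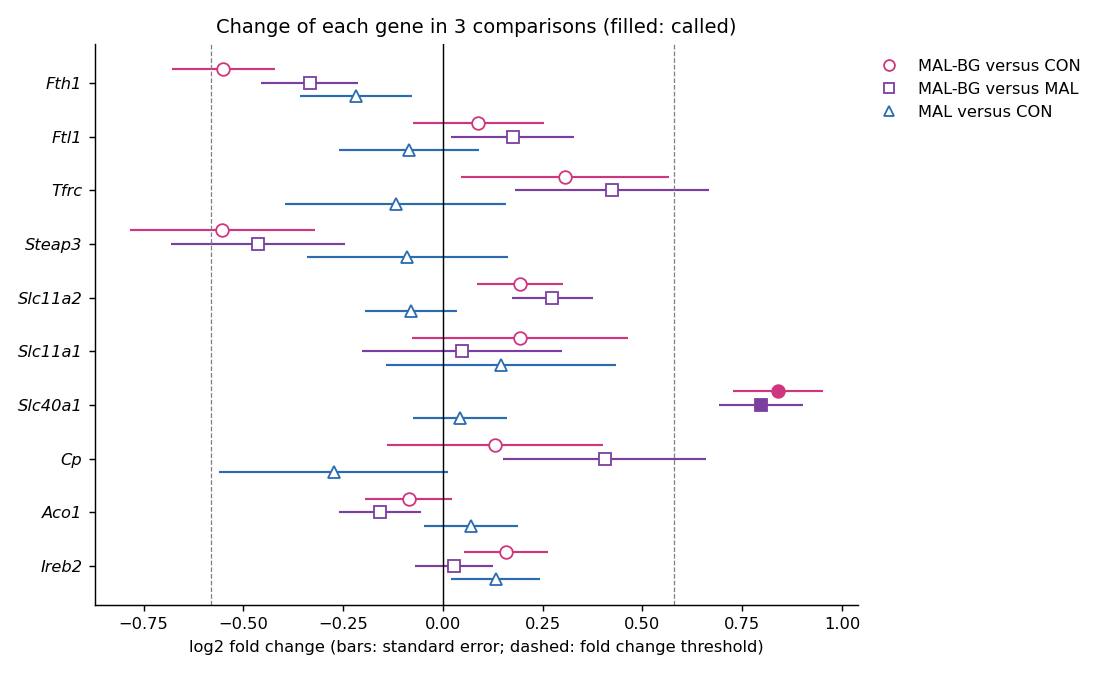
Log2 fold change (x axis) of the 10 iron genes (y axis) in 3 comparisons, with the standard error of the edgeR fit as bars, filled symbols for called genes, and dashed lines at -0.58 and 0.58. Slc40a1 stands at 0.84 relative to CON and 0.80 relative to MAL, while Fth1 and Steap3 lie to the left, at -0.55 each relative to CON, short of the fold threshold.

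Levels compared between genes were divided by the length of each reference transcript. In CON the ferritin mRNAs were far above the rest, at 1901 ± 218 CPM per kb for Fth1 and 1300.1 ± 103 for Ftl1 (SD, n = 4). Slc11a1 followed at 71.9 ± 21.2 and Slc40a1 at 40.2 ± 4.57 CPM per kb. Cp (15.8 ± 7.66), Ireb2 (14.8 ± 1.45), Slc11a2 (13.5 ± 1.81), Tfrc (12.6 ± 3.29) and Aco1 (11.6 ± 0.758) lay within the spread of their neighbours, so their order is not resolved. Steap3 was lowest, at 3.17 ± 0.882 CPM per kb. In MAL-BG, Slc40a1 (71.9 ± 5.04 CPM per kb, n = 7) came within the spread of Slc11a1 (82.1 ± 32.9), and Ftl1 (1383 ± 287) and Fth1 (1298 ± 191) overlapped. By mean CPM over all libraries, Fth1 ranked 49 and Ftl1 60 of 14565 genes, and Steap3 ranked 10382.

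**Figure D2:**
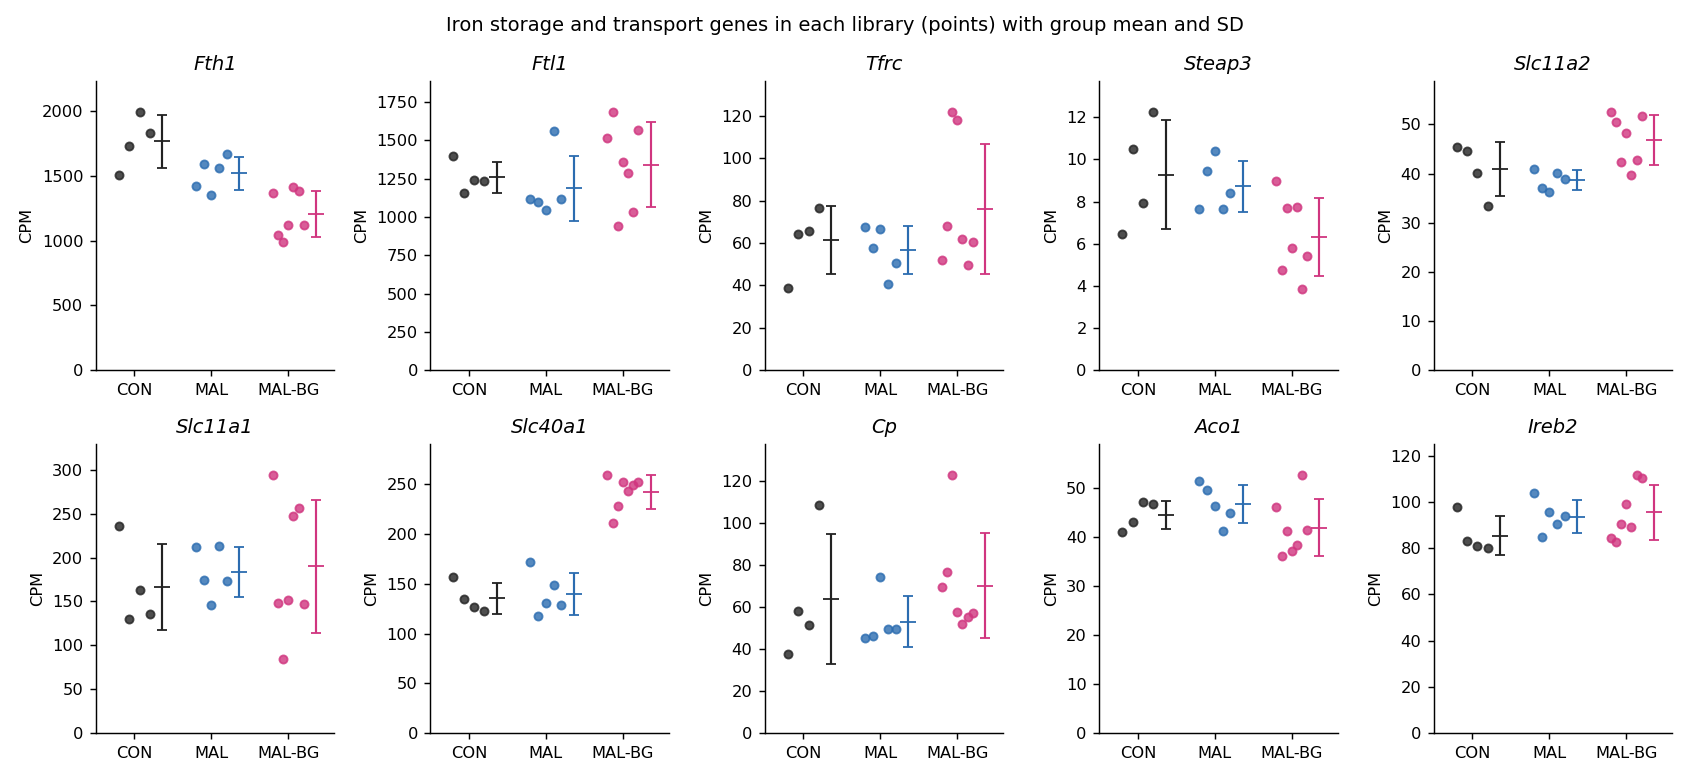
CPM (y axis, from 0, a separate scale for each gene) of the 10 iron genes in each library of CON, MAL and MAL-BG, with the group mean and SD beside the points. All 7 MAL-BG points of Slc40a1 lie above all others, and the MAL-BG points of Fth1 lie below those of CON. For Tfrc, MAL-BG libraries 3 and 4 lie high (122 and 118 CPM), and for Cp a single high point appears in each group.

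Slc40a1 (chr1:45908068-45926523, minus strand, GRCm38) encodes ferroportin, the iron exporter. Its level was 157, 135, 127 and 123 CPM in the 4 CON libraries and 172, 117, 130.4, 148 and 129 CPM in the 5 MAL libraries. In the 7 MAL-BG libraries it ran from 211 to 259.8 CPM, with a median of 249. Every MAL-BG library lay above every CON and MAL library, as was the case for 6.17% of all genes tested, and CON and MAL overlapped. Mean CPM was 1.79 times that of CON, a log2 fold change of 0.84 (SE 0.113, edgeR adjusted p = 5.28e-05). Against MAL it was 0.80 (SE 0.105, edgeR adjusted p = 4.46e-05). The call held in all 25 alternative fits of each comparison, which gave 0.80 to 1.11 relative to CON and 0.74 to 1.11 relative to MAL, with adjusted p of at most 0.000424 and 0.000272.

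The rise of Slc40a1 went along with that of the microglia markers. Their median log2 fold change was 0.81 relative to CON and 0.82 relative to MAL, close to that of Slc40a1. Per 1000 CPM of summed microglia markers, Slc40a1 stood at 6.498 ± 0.946 in CON (SD, n = 4), 6.27 ± 1.01 in MAL (n = 5) and 5.60 ± 0.637 in MAL-BG (n = 7). On this scale the groups overlapped, with 5.64 to 7.32 in CON, 4.99 to 7.47 in MAL and 4.73 to 6.58 in MAL-BG, and MAL-BG was no longer above the rest. The marker sum was itself higher in every MAL-BG library than in any CON or MAL library, which lowers this ratio. The ratio is given without a test. As a description within groups, deviations of log2 CPM of Slc40a1 and of the marker sum had a Pearson r of 0.61 over 16 libraries. The same r was of similar size and negative for neuron (-0.62), astrocyte (-0.56) and ependyma (-0.54) markers. How much of the rise of Slc40a1 goes with the microglia content of the fraction was not tested.

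**Figure D3:**
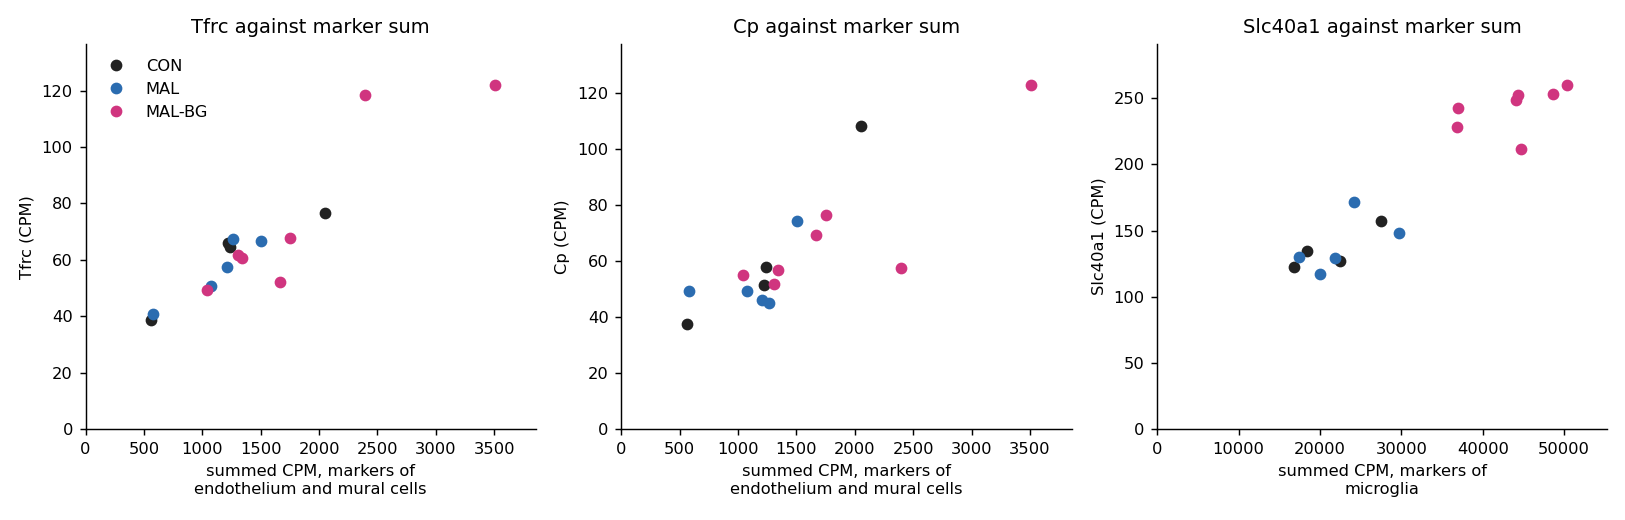
CPM of Tfrc, Cp and Slc40a1 (y axes) against the summed CPM of marker genes (x axes: endothelium and mural cells for Tfrc and Cp, microglia for Slc40a1), 1 point per library. MAL-BG library 3 lies at the far right for Tfrc (122 CPM) and Cp (123 CPM) with 3506 CPM of endothelial and mural markers, and the 7 MAL-BG libraries form the upper right group for Slc40a1.

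The ferritin subunits differed from each other. Fth1 (chr19:9980598-9985098, plus strand) encodes the heavy subunit, which oxidizes iron as it enters the shell. It was read at 1509.7, 1729, 1993 and 1832 CPM in CON and at 1426, 1594, 1349, 1559 and 1667 CPM in MAL. In MAL-BG it ran from 992 to 1414 CPM with a median of 1122. All 7 MAL-BG libraries lay below all 4 CON libraries but overlapped MAL. The share of all genes separated from CON in this way was not counted, and 21.7% were called lower in MAL-BG versus CON. Relative to CON, Fth1 stood at -0.55 on the log2 scale (SE 0.129, edgeR adjusted p = 0.00273). Relative to MAL it stood at -0.33 (SE 0.122, edgeR adjusted p = 0.0345). Both passed the adjusted p and not the fold threshold, and relative to MAL the adjusted p was missed in 10 of 25 alternatives (highest 0.143). The value relative to CON sat near that threshold, and 5 of 25 alternatives crossed it, among them the fits without CON library 1 (-0.62), MAL-BG library 5 (-0.61) and MAL-BG library 6 (-0.59).

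Ftl1 (chr7:45457944-45459884, minus strand) encodes the light subunit, which helps to form the iron core. Its CON libraries gave 1397, 1158, 1242 and 1237 CPM, and its MAL libraries 1114, 1095, 1042, 1559 and 1118 CPM. In MAL-BG it ran from 938 to 1684 CPM with a median of 1358, across the whole range of the other groups. Its log2 fold change from CON was 0.09 (SE 0.164, edgeR adjusted p = 0.683), and from MAL 0.17 (SE 0.154, edgeR adjusted p = 0.368), and an offset for length and GC content turned these to -0.04 and -0.05. Exons of Ftl1 share 109 bases with the miRNA gene Gm22133 on the same strand and 355 with the antisense locus Gm10252, and the strand option of the counting is not named. Ferritin has near-identical copies elsewhere in the genome. Among rows with symbols starting with Fth or Ftl, the only other one was Fthl17, with 0 counts in all libraries. Copies under other names were not looked for, so reads lost to or gained from copies cannot be traced for either subunit.

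The ratio of Fth1 to Ftl1 CPM needs no scaling between libraries. It was 1.08, 1.49, 1.60 and 1.48 in CON, and 1.28, 1.46, 1.29, 0.9998 and 1.49 in MAL. In MAL-BG it ran from 0.620 to 1.34 with a median of 0.904. The means were 1.42 ± 0.230 (SD, n = 4), 1.30 ± 0.194 (n = 5) and 0.938 ± 0.249 (n = 7), and the groups overlapped. Per 1000 CPM of microglia markers, Fth1 stood at 54.9 to 109 in CON, 52.4 to 79.7 in MAL and 22.99 to 38.3 in MAL-BG. MAL-BG did not overlap the others. The marker sum was higher in every MAL-BG library than in any CON or MAL library, which by itself lowers this ratio. The share of all genes that separate on this scale was not counted. Both ratios were formed after the values had been seen and are given without a test.

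**Figure D4:**
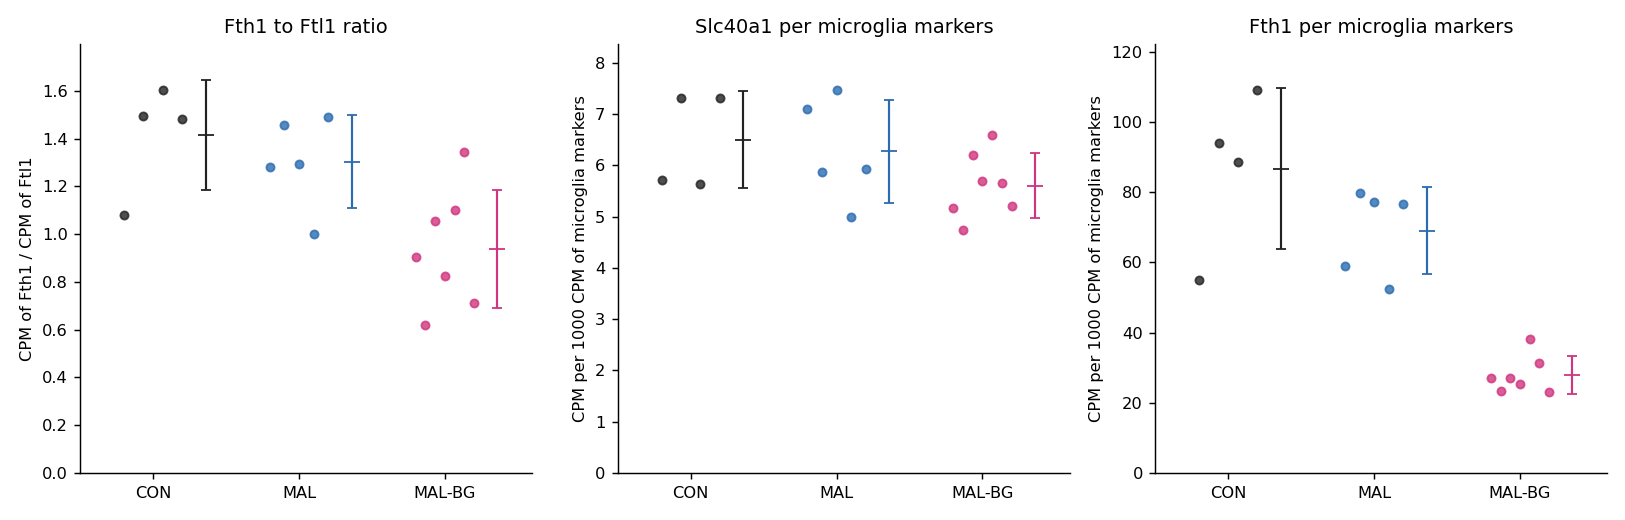
Ratio of Fth1 to Ftl1 CPM, and CPM of Slc40a1 and of Fth1 per 1000 CPM of summed microglia markers (y axes, from 0), by library in CON, MAL and MAL-BG, with group mean and SD. Fth1 per microglia markers lies at 22.99 to 38.3 in MAL-BG, below all other libraries, while the groups overlap in the other panels. The microglia marker sum is itself higher in MAL-BG, which lowers both ratios formed with it.

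Among the uptake genes none was called. Tfrc (chr16:32608920-32632794, plus strand) encodes the transferrin receptor. CON libraries read 38.8, 64.5, 65.9 and 76.8 CPM, and MAL libraries 67.5, 57.5, 66.7, 40.7 and 50.8 CPM. MAL-BG ran from 49.4 to 122 CPM with a median of 61.8, and libraries 3 (122 CPM) and 4 (118 CPM) alone lay above all CON and MAL libraries. The fit gave a log2 fold change over CON of 0.31 (SE 0.261, edgeR adjusted p = 0.357) and over MAL of 0.42 (SE 0.244, edgeR adjusted p = 0.167). Libraries 3 and 4 also had the highest summed endothelial and mural markers of all 16 (3506 and 2393 CPM). Brain endothelium is known for a high level of this receptor, and within groups the deviations of Tfrc and of this marker sum had a Pearson r of 0.90 over 16 libraries, as a description. The same r was 0.74 for astrocyte, 0.73 for oligodendrocyte, 0.71 for neuron and 0.64 for ependyma markers. The part of RNA from these cells in the Tfrc values was not tested.

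Steap3 (chr1:120190757-120272705, minus strand) encodes an endosomal ferrireductase and was the least abundant member. It was read at 6.45, 10.5, 7.95 and 12.3 CPM in CON and at 7.66, 9.47, 10.4, 7.65 and 8.43 CPM in MAL. In MAL-BG it ran from 3.86 to 8.96 CPM with a median of 5.79, and 4 of the 7 libraries lay below all others. MAL-BG stood at -0.55 on the log2 scale relative to CON (SE 0.232, edgeR adjusted p = 0.062) and, relative to MAL, at -0.46 (SE 0.219, edgeR adjusted p = 0.0949). This gene moved across the threshold relative to CON without CON library 1 (-0.69), MAL-BG library 1 (-0.60), MAL-BG library 3 (-0.61) or MAL-BG library 5 (-0.63). Without MAL-BG libraries 3 and 5 together it passed in both comparisons, at -0.70 (adjusted p = 0.0317) and -0.61 (adjusted p = 0.0488).

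Slc11a2 (chr15:100387898-100425072, minus strand) encodes DMT1, the divalent metal transporter of endosomes. CON libraries gave 45.4, 44.7, 40.1 and 33.5 CPM, and MAL libraries lay closely together at 41.0, 37.0, 36.3, 40.2 and 39.0 CPM. MAL-BG ran from 39.8 to 52.5 CPM with a median of 48.2, overlapping both groups. Relative to MAL its log2 fold change was 0.27 (SE 0.101, edgeR adjusted p = 0.0366), which passed the adjusted p (missed in 6 of 25 alternatives) but not the fold threshold, and relative to CON it was 0.19 (SE 0.108, edgeR adjusted p = 0.155). Its exons share 402 bases with the antisense gene Gm5475, so reads of the 2 cannot be told apart if strand was not used.

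Slc11a1 (chr1:74375195-74386062, plus strand) encodes NRAMP1, a metal ion transporter of phagosomes. Whether the transporter works in mice of this strain was not measured, and the values are of mRNA only. CON libraries gave 237, 129.96, 163 and 136 CPM, and MAL libraries 212, 175, 147, 213 and 173 CPM. MAL-BG spread from 84.6 to 295 CPM with a median of 152. It thus held both the lowest and the highest library of the study, with a log2 fold change over CON of 0.19 (SE 0.270, edgeR adjusted p = 0.585) and over MAL of 0.05 (SE 0.251, edgeR adjusted p = 0.891). Per 1000 CPM of microglia markers it stood at 7.07 to 8.61 in CON, 7.17 to 8.76 in MAL and 2.30 to 6.70 in MAL-BG. MAL-BG did not overlap the other groups on this scale. The marker sum itself was higher in every MAL-BG library (36825 to 50286 CPM) than in any CON or MAL library (at most 29763 CPM). A gene with unchanged CPM therefore falls on this scale, and the share of all genes that separate on it was not counted. The gene whose within-group pattern was nearest to Slc11a1 was Csf1r (Pearson r = 0.97), itself 1 of the 10 microglia markers.

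Cp (chr3:19957054-20009145, plus strand) encodes ceruloplasmin, the copper ferroxidase that works beside ferroportin. It was read at 37.5, 58.03, 51.5 and 108 CPM in CON and at 44.9, 46.3, 74.2, 49.2 and 49.5 CPM in MAL. MAL-BG ran from 51.9 to 123 CPM with a median of 57.5. Each group had 1 high library, and these were the 3 libraries with the highest endothelial and mural marker sum of their own group (2051 CPM in CON library 4, 1506 in MAL library 3 and 3506 in MAL-BG library 3). Fitted log2 fold changes were 0.13 over CON (SE 0.270, edgeR adjusted p = 0.717) and 0.41 over MAL (SE 0.254, edgeR adjusted p = 0.204). With length and GC offsets the latter was called, at 0.75 (adjusted p = 0.0226), and without MAL-BG library 3 the former turned to -0.06. MAL-BG library 3 also had the highest choroid plexus, ependyma, astrocyte, oligodendrocyte and neuron marker sums of its group. Within groups the Pearson r of Cp over 16 libraries was 0.78 with the endothelial and mural marker sum. The same r was 0.66 for neuron, 0.66 for ependyma, 0.56 for astrocyte, 0.44 for choroid plexus and -0.61 for microglia markers. The part of RNA from any of these cells in the Cp values was not tested. Exons of Cp share 108 bases with the antisense gene Hps3.

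Neither sensor was called. Aco1 (chr4:40143081-40198338, plus strand) encodes IRP1, which is a cytosolic aconitase when it holds an iron-sulfur cluster and binds the hairpins when it does not. It was read at 41.1, 42.9, 47.0 and 46.7 CPM in CON, at 51.3, 49.4, 46.3, 41.2 and 44.9 CPM in MAL, and from 36.2 to 52.6 CPM with a median of 41.3 in MAL-BG. Ireb2 (chr9:54863789-54912530, plus strand) encodes IRP2, which is degraded when iron is plentiful. Its libraries gave 97.9, 83.2, 81.0 and 79.9 CPM in CON, 104, 84.7, 95.7, 90.4 and 93.7 CPM in MAL, and 82.7 to 112 CPM with a median of 90.6 in MAL-BG. The groups overlapped for both genes. The log2 fold change of Aco1 was -0.09 relative to CON and -0.16 relative to MAL (SE 0.1095 and 0.102, edgeR adjusted p = 0.544 and 0.221), and that of Ireb2 was 0.16 and 0.03 (SE 0.105 and 0.0978, edgeR adjusted p = 0.23 and 0.842).

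For the diet alone, MAL versus CON, no member was called. All adjusted p were 0.999, and 0 members had an unadjusted p under 0.05. Over all genes 0% were called by edgeR and DESeq2 called 0, while 212 genes had an unadjusted p under 0.05 in edgeR and 241 in DESeq2. The largest log2 differences were -0.27 for Cp (SE 0.288) and -0.22 for Fth1 (SE 0.140). Fth1 thus stood highest in CON, between in MAL (1519 ± 129 CPM, n = 5) and lowest in MAL-BG, with the CON (1766 ± 202 CPM, n = 4) and MAL values overlapping. No member had all MAL-BG libraries below all others, a pattern shown by 6.34% of genes.

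For each member the tested genes of most similar pattern were found by the Pearson r of log2 CPM deviations from the group means over 16 libraries, a description in which all points share their library. For Fth1 these were Tpd52l2 (0.96) and the ribosomal protein gene Rpl4 (0.94), and for Ftl1 Mzt2 (0.96) and Commd9 (0.95). Tfrc was nearest to Slc26a10 (0.95) and Vsig2 (0.95), Steap3 to Islr (0.94) and Gpc6 (0.92), Slc11a2 to Atraid (0.85) and Adck2 (0.84), and Slc11a1 to Csf1r (0.97) and Brat1 (0.97). Slc40a1 was nearest to Fam76b (0.92) and Zfp280c (0.88), Cp to Lmod1 (0.91) and Ier5l (0.91), Aco1 to Nudcd1 (0.87) and Dennd4c (0.87), and Ireb2 to Lats1 (0.91) and Zfp873 (0.89). Between the members themselves, Fth1 and Ftl1 did not move together (-0.02), whereas Tfrc and Cp did (0.59) and Tfrc and Slc11a1 moved in opposite directions (-0.78).

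Of 60 further genes of iron and heme biology, 52 were tested. In MAL-BG versus CON 3 were called higher and 10 lower (5.77% and 19.2% of those tested), and in MAL-BG versus MAL 4 higher and 7 lower. Both shares lie below those of all genes given above, and the median log2 fold change was -0.20 relative to CON and -0.05 relative to MAL. In MAL versus CON none was called (0 of 52), and 2 had an unadjusted p under 0.05.

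**Figure D5:**
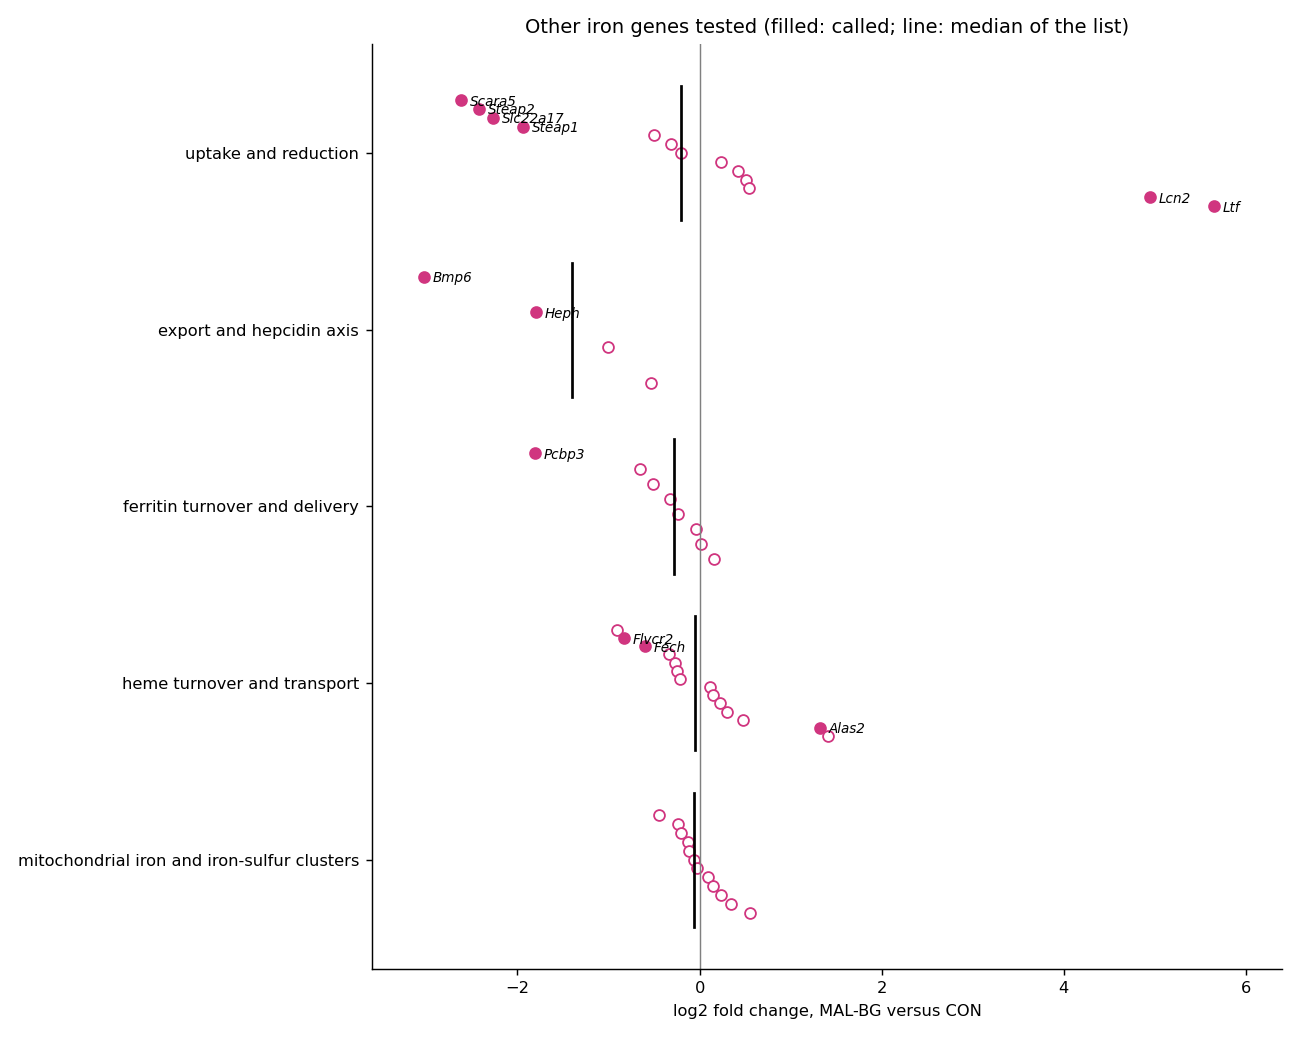
Log2 fold change in MAL-BG versus CON (x axis) of the other iron genes tested, by list (y axis), with filled points and names for called genes and a line at the median of each list, and with 1 gene not drawn. Ltf and Lcn2 stand far to the right, at 5.64 and 4.94, and Bmp6 farthest to the left, at -3.03.

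In the list of uptake and reduction (13 of 14 tested), 2 were called higher and 4 lower in both comparisons (15.4% and 30.8% of those tested). Of all genes, 11.4% were called higher and 21.7% lower relative to CON, and 10.2% and 20.2% relative to MAL. The higher genes were lactoferrin (Ltf) and lipocalin 2 (Lcn2), secreted proteins of neutrophil granules that bind iron or the siderophores of bacteria. Ltf ran from 1.26 to 18.7 CPM in CON, 2.15 to 30.5 in MAL and 15.6 to 1925 in MAL-BG (median 78.6), with a log2 fold change of 5.64 relative to CON (SE 1.38, edgeR adjusted p = 0.00356). Lcn2 ran from 1.02 to 8.25, 1.19 to 12.7 and 9.98 to 704 CPM, with a log2 fold change of 4.94 (SE 1.30, edgeR adjusted p = 0.00566). MAL-BG library 5 was the highest for both and for the summed neutrophil markers, of which 7 of 8 tested were called higher. Without it the log2 fold changes were 4.39 and 3.29 relative to CON, and both calls held (adjusted p = 0.00424 and 0.00655). Transferrin (Trf), the iron carrier, had the highest mean of the list, with 1503 ± 317 CPM in MAL-BG, 1120.3 ± 80.5 in CON and 1069 ± 127 in MAL. Its log2 fold change of 0.42 relative to CON (SE 0.155) and 0.49 relative to MAL (SE 0.144) passed the adjusted p (edgeR, 0.0343 and 0.0113) and not the fold threshold.

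The genes called lower in this list were the metalloreductases Steap1 (-1.94 relative to CON) and Steap2 (-2.42), the lipocalin receptor Slc22a17 (-2.27) and the ferritin receptor Scara5 (-2.62), and those other than Slc22a17 are named here after their values were seen. Slc22a17 ran at 122 ± 39.3 CPM in MAL-BG, below the 588 ± 253 of CON and the 473 ± 230 of MAL. Within groups these 4 genes followed the summed choroid plexus markers, with a Pearson r of 0.95 for Steap1, 0.98 for Steap2, 0.91 for Slc22a17 and 0.94 for Scara5 over 16 libraries. The part of choroid plexus RNA in their change was not tested. The call of Steap1 was lost without CON library 2 relative to CON, and in 8 of 25 alternatives relative to MAL.

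In the list of export and the hepcidin axis, 4 of 9 were tested, and 2 were called lower in both comparisons. That is 50% of those tested, beside 21.7% of all genes relative to CON and 20.2% relative to MAL. Hephaestin (Heph), the ferroxidase related to ceruloplasmin, ran from 2.99 to 9.08 CPM in CON, 2.90 to 9.80 in MAL and 0.951 to 3.10 in MAL-BG, with log2 fold changes of -1.80 (SE 0.372, edgeR adjusted p = 0.00115) and -1.93 (SE 0.354, adjusted p = 0.000513). Bmp6, a secreted ligand that raises hepcidin in the liver, fell by 3.03 on the log2 scale relative to CON and stood at -2.75 relative to MAL. All 7 MAL-BG libraries (2.37 to 8.68 CPM) lay below all others, as was the case for 6.34% of all genes tested. Within groups the Pearson r of Heph over 16 libraries was 0.78 with the choroid plexus, 0.77 with the ependyma and -0.86 with the microglia marker sum, and that of Bmp6 was 0.87, 0.66 and -0.71. The part of these markers in both genes was not tested. Neo1, the receptor neogenin, had a log2 fold change of -0.53 relative to CON (SE 0.297, edgeR adjusted p = 0.154), which turned to 0.07 without CON library 4. Hepcidin itself (Hamp), the hormone that removes ferroportin from the membrane, was read with 4 counts over all MAL-BG libraries, 1 over those of MAL and 1 over those of CON, and no change could be tested at this depth.

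In ferritin turnover and delivery (8 of 9 tested), 1 gene was called lower in each comparison, the RNA-binding protein gene Pcbp3 (-1.81 relative to CON, edgeR adjusted p = 0.00243), named after its values were seen. Ncoa4, the receptor that brings ferritin to autophagosomes, was spread widely in MAL-BG, from 4.52 to 31.7 CPM, against 21.2 to 25.4 in CON and 20.5 to 33.4 in MAL. Its log2 fold change was -0.65 relative to CON (SE 0.375, edgeR adjusted p = 0.166) and -0.83 relative to MAL (SE 0.352, edgeR adjusted p = 0.0646). In 5 of 7 MAL-BG libraries Ncoa4 lay below all CON and MAL libraries, and relative to MAL it was called lower in 3 of 25 alternatives, with DESeq2 (adjusted p = 0.0497) and without MAL-BG library 5 or 6. Relative to CON it was called lower in 1 of 25, without MAL-BG library 6 (-0.94). Fbxl5, whose product marks IRP2 for degradation, had a log2 fold change of 0.15 relative to CON (SE 0.0942, edgeR adjusted p = 0.192). The most abundant genes, the iron chaperones Pcbp2 (305 ± 30.6 CPM in CON and 244 ± 66.6 in MAL-BG), Pcbp1 (250.3 ± 16.8 and 213 ± 72.1) and the ligase gene Herc2 (297 ± 68.2 and 208 ± 57.4), were not called. Herc2 passed the adjusted p but not the fold threshold, with log2 fold changes of -0.51 relative to CON (SE 0.183, edgeR adjusted p = 0.0304) and -0.57 relative to MAL (SE 0.172, edgeR adjusted p = 0.0138), and was called lower in 2 and 5 of 25 alternatives.

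In heme turnover and transport (14 of 15 tested), Alas2, the erythroid form of the first enzyme of heme synthesis, was called higher in both comparisons, and Flvcr2 and ferrochelatase (Fech) lower relative to CON. These 3 are named after their values were seen. The shares called higher (7.14% in both comparisons) and lower relative to CON (14.3%) lay below those of all genes. Alas2 was low, at 1.19 ± 0.540 CPM in CON and 2.99 ± 1.02 in MAL-BG (log2 fold change 1.32, SE 0.471, edgeR adjusted p = 0.0309), and without MAL-BG library 3 (1.18, adjusted p = 0.0508), CON library 2 or CON library 3 it missed the threshold relative to CON. The calls of Flvcr2 and Fech were lost in 13 and 8 of 25 alternatives. The erythroid markers, of which 7 of 8 listed had a row, summed to at most 1.03 CPM in any library. The 4 globin rows were at 0 counts in all 16 libraries. How reads that match more than 1 gene were counted is not stated. These rows therefore cannot show whether erythroid RNA was present. Hmox1, the inducible heme oxygenase that frees iron from heme, overlapped across the groups, with 47.0 to 116 CPM in CON, 60.3 to 112 in MAL and 44.8 to 121 in MAL-BG (log2 fold change 0.31 relative to CON, SE 0.286, edgeR adjusted p = 0.402). Hmox2, the constitutive form, had a log2 fold change of 0.48 (SE 0.133, edgeR adjusted p = 0.00782), which passed the adjusted p alone. The receptor gene Lrp1 and the heme-sensing repressor gene Bach1 were not called, at -0.33 and -0.25.

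In mitochondrial iron and iron-sulfur clusters (13 of 13 tested), glutaredoxin 5 (Glrx5) was called higher relative to MAL (0.73, edgeR adjusted p = 0.0114), and it is named after its values were seen. That is 7.69% of those tested, beside 10.2% of all genes. The most abundant genes were the iron importer mitoferrin 1 (Slc25a37), the scaffold gene Iscu and Cisd2, with log2 fold changes relative to CON of 0.15 (SE 0.251), -0.06 (SE 0.0944) and 0.09 (SE 0.0981), none called. Slc25a37 rested on 1 control library: without CON library 1 its log2 fold change was 0.61 and it was called higher (edgeR adjusted p = 0.0143). The median of the list was -0.06 relative to CON and 0.07 relative to MAL, near that of all genes.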

How the data were processed

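Stranded poly(A) libraries were made by the authors, who aligned paired reads to GRCm38.p6 with STAR, counted reads per gene with HTSeq (2.5 in the submitters' processing notes), and deposited counts without normalization. The annotation and strand option of the counting are not given in the sources used here. Column names give a group and a running number that matches no sample title, so libraries could not be assigned to batches. The code given with the study fits a batch term beside condition. The fits here hold no such term, and their p-values ignore that factor. With columns not assigned to batches, effects of batch and group could not be separated here.

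Counts were analysed in R 4.3.3 with edgeR 4.0.16 (TMM scaling, 3 groups in 1 quasi-likelihood fit, Benjamini-Hochberg adjustment over 14565 genes). Log2 CPM used a prior count of 2. No pair of replicates agreed within sampling noise (lowest chi-square 10.0 per degree of freedom). The labels do not say that the samples of a group came from separate mice, so p-values measure the spread between libraries. The steps were tested on simulated counts. Named genes were the 10 members, the 3 most abundant tested genes of each list, 8 fixed names, and the 2 nearest patterns of each member. The members and lists were chosen with earlier results of these data known. Alternatives were other scalings, offsets for length and GC content, DESeq2 1.42.0, other filters, no fold threshold, compared groups only, thinned libraries, and each library left out in turn. Hairpins were searched in GENCODE M21 transcripts. Values of 1 gene of the lists are not reported here, and it stays in the counts.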

Additional observations from a re-analysis of the deposited data

Results flagged for a closer look

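In 33 groups examined (the 10 genes and the ratio of Fth1 to Ftl1 in CON, MAL and MAL-BG), 3 held a library separated from the others of its group by more than Dixon's 95% critical value allows, where chance alone marks about 5% of groups. Ftl1 was 1559 CPM in MAL library 4, against 1042 to 1118 CPM in the other MAL libraries. Cp was 74.2 CPM in MAL library 3, against 44.9 to 49.5 CPM. Cp was also 123 CPM in MAL-BG library 3, against 51.9 to 76.6 CPM in the other MAL-BG libraries. MAL library 4 had the lowest choroid plexus marker sum (6460 CPM) and the highest microglia marker sum (29763 CPM) of its group, and both Cp libraries had the highest endothelial and mural marker sum of theirs (1506 and 3506 CPM). MAL-BG library 3 also had the highest choroid plexus, ependyma, astrocyte, oligodendrocyte and neuron marker sums of its group. The part of these markers in the values was not tested.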

How the results depend on the processing

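No paired analysis was possible because the running numbers of the columns match no sample title, so the planned fit with a replicate block was not run. The call of Slc40a1 held under every alternative run. With length and GC offsets, members called lower against CON were 1 (Fth1, -0.59), members called higher against MAL 2, and other iron genes called higher against CON 5. The log2 fold change then reversed for Ftl1, to -0.043 against CON, -0.048 against MAL and 0.0048 in MAL versus CON, and for Slc11a1 against MAL, to -0.028. With the stricter filter (more than 50 counts), 2 members were called lower against CON (Fth1, -0.60, and Steap3, -0.60) and Ireb2 reversed against MAL, to -0.013. Without a fold threshold, members called lower were 1 in each MAL-BG comparison, members called higher against MAL 2, and other iron genes called higher 7 against CON and 7 against MAL. Without MAL-BG libraries 3 and 5, an alternative chosen after seeing the data, 1 member (Steap3) was called lower in each MAL-BG comparison and Cp against CON was -0.037.

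Leaving out 1 library at a time gave 0 to 2 members called lower against CON, 2 to 6 other iron genes called higher (6 without CON library 1 or MAL-BG library 6) and 6 (without CON library 2) to 12 called lower, with 3 and 10 in the full fit. Directions turned for small differences: Cp against CON (-0.063 to 0.51), Aco1 against CON (-0.15 to 0.012), Slc11a1 (-0.048 to 0.18) and Ireb2 (-0.015 to 0.11) against MAL, and in MAL versus CON Tfrc (-0.29 to 0.0067), Steap3 (-0.23 to 0.075), Slc40a1 (-0.043 to 0.12) and Cp (-0.46 to 0.11). The cause was not tested.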
